A study of Rattus norvegicus with 9 samples.

Results

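The genes described here are those of rat MHC and antigen processing: every gene of the count files whose name starts with RT1-, the prefix of the rat major histocompatibility complex (MHC), and 14 named partners (B2m, Cd74, Tap1, Tap2, Tapbp, Psmb8, Psmb9, Psmb10, Ciita, Nlrc5, Erap1, Cd80, Cd86 and Cd40). This name rule found 42 of the 22890 genes in the files. Of these, 39 had at least 1 count and 30 passed the filter on low counts and were tested. The study sequenced RNA of rat striatal tissue, extracted with TRIzol, in 9 libraries. Sham stands for the control group, ICH for the group labelled intracerebral hemorrhage and EDB for the group labelled edaravone dexborneol, a combination of the radical scavenger edaravone with a borneol, with 3 libraries in each group. The labels give no dose, time, age, sex or strain, do not say how the hemorrhage was made, and do not say whether rats of the EDB group were given a hemorrhage too or whether the controls received a vehicle. Nor do they say whether the libraries within each group are different rats, so the p-values measure the spread between these samples only.

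MHC class I molecules are built from a heavy chain and beta-2 microglobulin and carry peptides that the proteasome cuts in the cytosol, that the TAP transporter moves into the endoplasmic reticulum and that aminopeptidases trim there, for reading by CD8 T cells. Class II molecules are pairs of alpha and beta chains that travel with the invariant chain to endosomes, where the DM molecule exchanges the invariant chain remnant for peptides that CD4 T cells read, and co-stimulatory molecules such as CD80, CD86 and CD40 accompany both kinds of display. In the healthy brain these genes are known to be kept low in neurons and to be carried mainly by microglia, border macrophages and vessel cells, and interferon gamma is the classical inducer of both routes, acting through NLRC5 on class I genes and CIITA on class II genes.

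Promoter stretches of 9 of these genes are printed because promoter boxes of the class I and class II routes are known. A further reason is that no class II chain gene was called on its own in these libraries while RT1-DMa, RT1-CE11, RT1-S3, B2m and Tap1 were, as described further on. The sequences are those of RefSeq for assembly GRCr8, not of the Rnor_6.0 build to which the counts refer, and each runs 5′ to 3′ on the gene's own strand from 180 to 36 bases before the annotated start. RT1-Da lies at chr20:4515235-4515379 on the plus strand, RT1-Db1 at chr20:4560198-4560342 on the minus strand, RT1-Ba at chr20:4576877-4577021 on the plus strand and RT1-DMa at chr20:4712371-4712515 on the minus strand. RT1-CE11 lies at chr20:3363234-3363378 and RT1-CE16 at chr20:3265479-3265623, both on the minus strand, and RT1-S3 at chr20:2675348-2675492 on the plus strand. B2m lies outside the complex at chr3:129549150-129549294 on the plus strand, and Tap1 at chr20:4668579-4668723 on the minus strand. Capitals mark matches, on either strand, to the X box core (GCAACNGAT), the CCAAT box, the cyclic AMP response element (TGACGTCA), the interferon-stimulated response element core (GAAANNGAA) and an NF-kB palindrome (GGGANTCCC).
RT1-Da: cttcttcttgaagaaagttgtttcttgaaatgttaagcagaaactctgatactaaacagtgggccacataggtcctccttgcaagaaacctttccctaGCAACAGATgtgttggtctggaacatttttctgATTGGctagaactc
RT1-Db1: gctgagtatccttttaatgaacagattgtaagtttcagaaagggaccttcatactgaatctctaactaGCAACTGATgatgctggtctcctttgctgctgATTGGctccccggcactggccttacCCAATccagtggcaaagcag
RT1-Ba: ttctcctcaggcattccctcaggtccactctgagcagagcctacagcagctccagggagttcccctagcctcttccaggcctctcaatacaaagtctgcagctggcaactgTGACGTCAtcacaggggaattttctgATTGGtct
RT1-DMa: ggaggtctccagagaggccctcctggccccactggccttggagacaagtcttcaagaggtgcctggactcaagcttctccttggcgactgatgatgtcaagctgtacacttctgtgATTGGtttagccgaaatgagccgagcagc
RT1-CE11: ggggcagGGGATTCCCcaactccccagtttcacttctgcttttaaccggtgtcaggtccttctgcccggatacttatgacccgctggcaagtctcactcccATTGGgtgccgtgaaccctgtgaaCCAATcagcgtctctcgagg
RT1-CE16: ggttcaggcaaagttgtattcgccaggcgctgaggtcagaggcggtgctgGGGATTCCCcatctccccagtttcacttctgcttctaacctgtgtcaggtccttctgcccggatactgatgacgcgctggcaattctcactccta
RT1-S3: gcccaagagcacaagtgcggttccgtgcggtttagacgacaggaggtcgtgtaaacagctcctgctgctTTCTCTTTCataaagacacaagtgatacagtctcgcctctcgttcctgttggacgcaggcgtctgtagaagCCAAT
B2m: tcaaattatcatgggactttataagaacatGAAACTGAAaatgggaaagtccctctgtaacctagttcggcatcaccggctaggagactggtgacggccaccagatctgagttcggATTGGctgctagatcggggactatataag
Tap1: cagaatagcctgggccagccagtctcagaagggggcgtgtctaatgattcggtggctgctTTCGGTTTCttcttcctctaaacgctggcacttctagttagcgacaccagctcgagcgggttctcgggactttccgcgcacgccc

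Windows of 250 bases before and 50 after the annotated start were found for 34 of the 42 genes, 25 of them among the 30 tested. The X box core, which the RFX complex is known to bind, occurred in 132 of all 33469 rat windows, or 0.394%. The genes with it among the 42 were RT1-Da, RT1-Db1, RT1-Db2 and RT1-DOb, and in these a CCAAT box on the opposite strand followed it, 30 to 33 bases further on. Of the 121 rat genes with the core, these 4 were the ones with that spacing. Of the 14 genes called higher in ICH with a window, none held an exact match to the X box core, and of the 11 tested but not called, 2 did. Near matches were not counted. In RT1-DMa, which was called, the printed stretch holds gcgactgat, 1 base away from the core, upstream of its ATTGG. In RT1-Ba, which was not called, gcaactg, the first letters of the core, stands upstream of its ATTGG. The interferon-stimulated response element core occurred in 9.71% of all windows and in 7 of the 14 called genes with a window (B2m, Tap1, Tap2, Psmb8, Psmb10, RT1-S3 and RT1-N3), against 1 of the 11 not called (Cd80). The core was also found in RT1-S2 and Tapbp, neither of which could be tested. These counts hold for this exact pattern, which was chosen with the data known. The stretch agtttcacttct, printed after GGGATTCCC in both RT1-CE11 (called) and RT1-CE16 (not called), does not match it and was not counted. Matches to this core overlapped each other in Psmb10, RT1-N3 and Tapbp, and matches to different motifs did not overlap. The CCAAT box occurred in 37.5% of all windows and in 23 of the 34 genes with a window, in 8 of the 14 called and in 10 of the 11 not called. The cyclic AMP response element occurred in 1.83% of all windows and in RT1-Ba, which was not called. The gamma-activated site core (TTCNNNGAA) occurred in 8.87%, in 1 of the 14 called (Psmb8) and in 2 of the 11 not called (Cd80 and RT1-M3-1). The NF-kB palindrome occurred in 0.681% of windows, in 1 of the 14 called (RT1-CE11) and in 1 of the 11 not called (RT1-CE16). Their 250 upstream bases share a longest identical run of 26 bases. The windows of Tap1 and Psmb9, which start on opposite strands, share 44 bases. A match describes letters in these windows and does not show that a factor binds there.

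**Figure D1:**
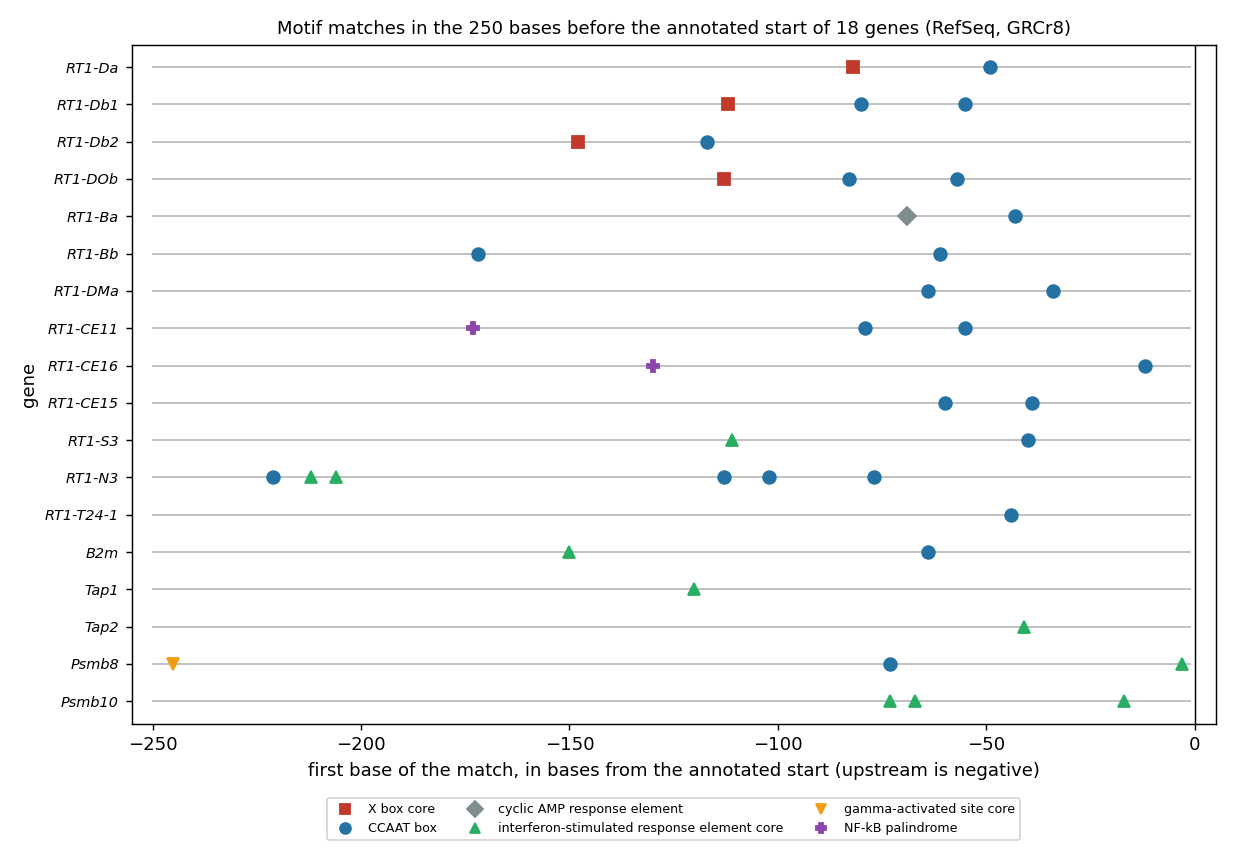
Exact motif matches in the 250 bases before the annotated start of 18 genes, with each row a gene, the x axis the first base of the match in bases from the start and the marker shape the motif. The X box core stands 82 to 148 bases before the start in RT1-Da, RT1-Db1, RT1-Db2 and RT1-DOb, each time upstream of a CCAAT box, and the interferon-stimulated response element core appears in class I, TAP and immunoproteasome genes.

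Total counts per library ran from 14658110 to 17659936, and the 42 genes took 0.0607 to 0.0754% of them in Sham, 0.178 to 0.234% in ICH and 0.126 to 0.149% in EDB. Levels are given as counts per 1000000 counts (CPM) on library sizes scaled by the trimmed mean of M values (TMM), and 3 counts correspond to 0.162 to 0.212 CPM. The summed level of 9 striatal neuron markers, among them the dopamine receptors Drd1 and Drd2, was 7979 to 12920 CPM in Sham, 5662 to 7092 in ICH and 8411 to 9565 in EDB, and none of the 9 libraries lacked them. Some libraries stood apart from others. ICH 1 held 0 counts of the Y-linked genes Kdm5d and Eif2s3y, which elsewhere stood at 10.3 to 18.5 and 3.35 to 9.91 CPM. EDB 3 carried choroid plexus transcripts at a summed 7389.9 CPM, against 29.5 to 78.5 in the other 8. The albumin gene Alb stood at 166 CPM in Sham 1 and 165 in Sham 3, against 2.27 to 25.8 elsewhere. Mitochondrially encoded genes took from 2.93% (ICH 2) to 12.03% (Sham 3) of the counts. The part of these features in the results was not tested. Where leaving out ICH 1 and EDB 3 together ended a call printed here, that is given beside the result.

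ICH was compared with Sham to ask what accompanied the hemorrhage, EDB with ICH to ask how the group given the drug differed from it, and EDB with Sham to set that group against the controls. The 3 comparisons share libraries. Changes are log2 fold changes ± SE from edgeR's quasi-likelihood F test with 3 libraries a group. Genes whose p, adjusted by the Benjamini-Hochberg method over the 14274 tested genes, fell under 0.05 are those described as called, risen or fallen. In ICH against Sham, 18 of the 30 tested genes rose, none fell and 12 were not called, where 18.7% of all tested genes were called, 11.4% higher and 7.30% lower. Over all genes 1628 were higher and 1042 lower, and 2008 and 691 with scaling by library size alone. Their median change was 1.70, against 0.01 over all genes, and in 22 of the 30 every ICH library lay above every Sham library, as in 20.2% of all genes. In EDB against ICH, edgeR called none of the 30, where it called 0.687% of all genes (0.0560% higher and 0.631% lower). An unadjusted p under 0.05 was held by 2318 of the 14274 tested genes and by 9 of the 30. DESeq2 called 3 of them lower (Cd40, RT1-DMa and RT1-T24-1) and limma-voom 1 (RT1-T24-1), and without Sham 2 edgeR called 2 (Cd40 at adjusted p = 0.0497 and RT1-T24-1 at adjusted p = 0.0461). The fitted change was below 0 for 29 of the 30, with a median of -0.48 against -0.03 over all genes. Without ICH 1 it was below 0 for 23, with a median of -0.29, and above 0 for Cd74, RT1-Ba, RT1-Da, RT1-Db1, RT1-CE14, RT1-CE16 and RT1-N2, and it was below 0 for 27 without ICH 1 and EDB 3 together. With all libraries 8 had every EDB library below every ICH library, as did 13.6% of all genes. In EDB against Sham, 11 of the 30 rose, none fell and 19 were not called, where 7.66% of all genes were called, 4.95% higher and 2.71% lower, with a median of 1.25 against -0.01. That count was 7 without Sham 1 or without EDB 1.

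The number of all genes called moved with single libraries too. In ICH against Sham it was 1769 genes without ICH 1, against 2670. In EDB against Sham it was 508 without EDB 1, 577 without Sham 3, 590 without Sham 1 and 1661 without Sham 2, against 1094. In EDB against ICH it lay between 8 (without ICH 2) and 321 (without Sham 2) when any 1 library was left out, against 98. In bulk tissue a change in the number of cells of a type and a change in RNA per cell cannot be told apart.

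**Figure D2:**
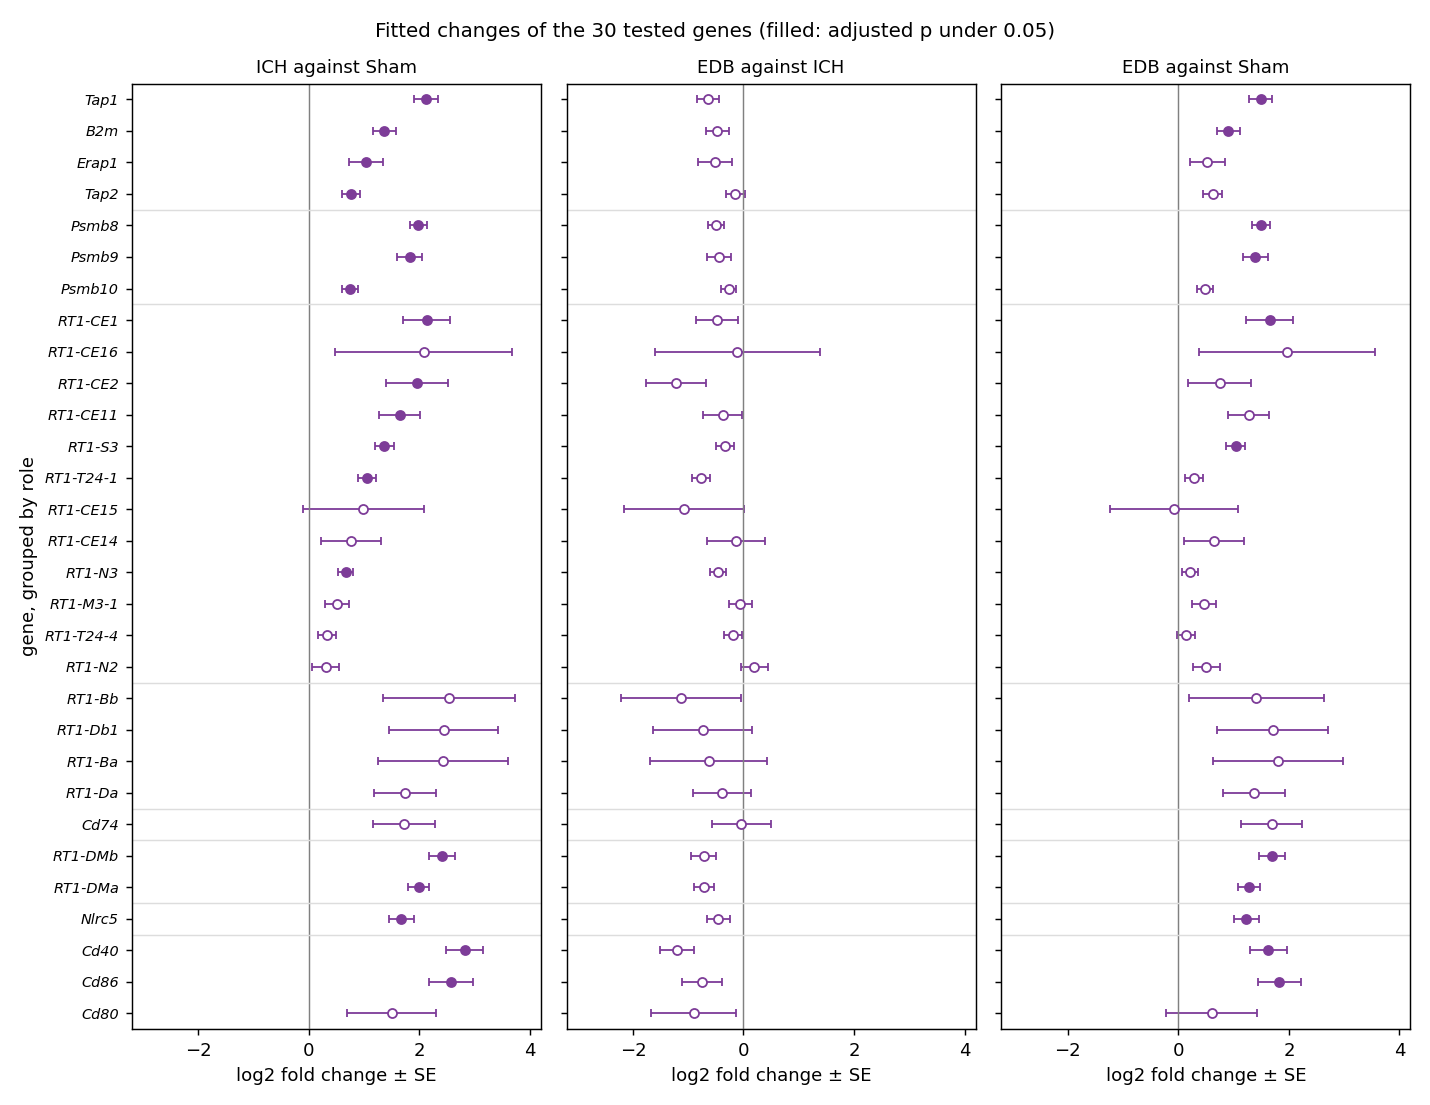
Fitted log2 fold changes ± SE of the 30 tested genes, grouped by role from class I loading at the top to co-stimulation at the bottom, in the 3 comparisons; filled points are called. All 30 points lie above 0 in ICH against Sham, 29 lie below 0 in EDB against ICH with none called, and the 4 class II chains and Cd74 have unfilled points with wide bars in every panel.

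The class I partner and loading genes rose together in ICH. All 4 that could be tested were called, and 2 of them were called in EDB against Sham. B2m, the light chain shared by all class I molecules, stood at 418, 344 and 509 CPM in Sham 1, 2 and 3, 1454, 843 and 997 in ICH 1, 2 and 3 and 781, 863 and 733 in EDB 1, 2 and 3. ICH 1 was the highest library, all ICH libraries exceeded all Sham libraries, and the lowest EDB library still exceeded the highest Sham library. B2m rose by 1.37 ± 0.21 (adjusted p = 0.00107) in ICH, a 2.59-fold difference, and by 0.90 ± 0.21 (adjusted p = 0.0241) in EDB against Sham, while EDB against ICH gave -0.47 ± 0.21 (adjusted p = 0.289). The EDB call was lost without Sham 1 (adjusted p = 0.0824), EDB 1 (0.0721) or EDB 2 (0.0671).

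Tap1, a subunit of the peptide transporter TAP, was at 10.2, 10.7 and 7.29 CPM in Sham 1, 2 and 3, 48.2, 43.4 and 32.1 in ICH 1, 2 and 3 and 23.8, 31.8 and 23.8 in EDB 1, 2 and 3. The 3 groups did not overlap, with EDB between the other two. Tap1 rose by 2.13 ± 0.21 (adjusted p = 8.05e-05) in ICH and by 1.49 ± 0.21 (adjusted p = 0.00210) in EDB against Sham, and EDB against ICH gave -0.64 ± 0.20 (adjusted p = 0.161). Tap2, the other TAP subunit, was at 14.9, 16.7 and 13.3 CPM in Sham 1, 2 and 3, 29.9, 25.5 and 20.9 in ICH 1, 2 and 3 and 23.6, 20.6 and 24.8 in EDB 1, 2 and 3. It rose by 0.77 ± 0.17 (adjusted p = 0.00959) in ICH, and EDB against Sham fell just short of the threshold at 0.62 ± 0.17 (adjusted p = 0.0504) although all EDB libraries exceeded all Sham libraries. Without ICH 1 and EDB 3 together the ICH call of Tap2 was lost (adjusted p = 0.0551), and Tap2 in EDB against Sham was called when ICH 1, ICH 3 or Sham 2 was left out, with adjusted p between 0.0383 and 0.0468. DESeq2 also called Tap2 in EDB against Sham (adjusted p = 0.0192), and limma-voom did not. Erap1, the endoplasmic reticulum aminopeptidase that trims class I peptides, was at 13.1, 7.93 and 15.4 CPM in Sham 1, 2 and 3, 35.2, 20.4 and 19.3 in ICH 1, 2 and 3 and 12.002, 19.2 and 21.3 in EDB 1, 2 and 3. ICH 1 was far above the other ICH libraries and EDB overlapped Sham. Its call in ICH, 1.04 ± 0.31 (adjusted p = 0.0408), was lost when EDB 2, Sham 1, Sham 2, ICH 1 or ICH 2 was left out, with adjusted p between 0.0508 and 0.167, and when ICH 1 and EDB 3 were left out together (0.1645).

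**Figure D3:**
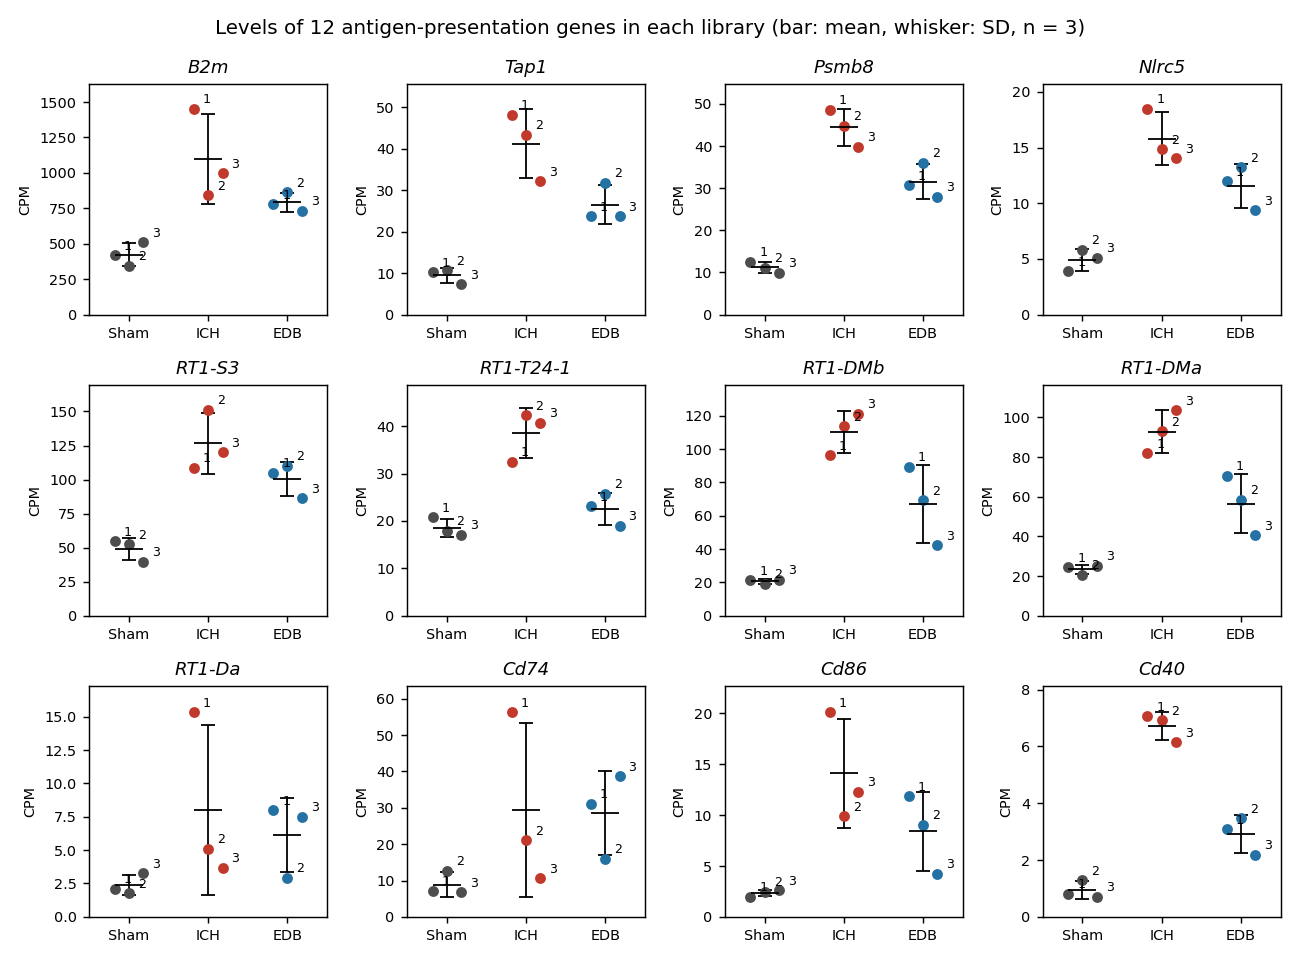
CPM of 12 genes in each library (points, numbered by library) with the mean and SD of each group of 3. In B2m, Tap1, Psmb8, Nlrc5, RT1-S3, RT1-DMa, RT1-DMb and Cd40 all ICH and all EDB libraries lie above all Sham libraries, whereas in RT1-Da and Cd74 ICH 1 lies far above ICH 2 and ICH 3.

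The 3 immunoproteasome subunits, which replace the standard catalytic subunits and shift the cut towards peptides that fit class I molecules, all rose in ICH. Psmb8 was at 12.5, 11.1 and 9.91 CPM in Sham 1, 2 and 3, 48.6, 44.9 and 39.9 in ICH 1, 2 and 3 and 30.7, 36.03 and 27.9 in EDB 1, 2 and 3. The 3 groups did not overlap, with EDB between the other two. Psmb8 rose by 1.99 ± 0.16 (adjusted p = 2.72e-05) in ICH and by 1.496 ± 0.16 (adjusted p = 0.000566) in EDB against Sham, and EDB against ICH gave -0.49 ± 0.15 (adjusted p = 0.144). Psmb9, its neighbour beside Tap1, was at 5.62, 7.25 and 4.32 CPM in Sham 1, 2 and 3, 22.4, 22.8 and 16.04 in ICH 1, 2 and 3 and 16.8, 14.0 and 14.3 in EDB 1, 2 and 3. All ICH and all EDB libraries exceeded all Sham libraries, and EDB 1 reached above ICH 3. Psmb9 rose by 1.83 ± 0.23 (adjusted p = 0.000280) in ICH and by 1.39 ± 0.23 (adjusted p = 0.00413) in EDB against Sham. Psmb10 was at 25.1, 27.02 and 23.1 CPM in Sham 1, 2 and 3, 47.5, 43.2 and 35.9 in ICH 1, 2 and 3 and 37.1, 35.4 and 32.7 in EDB 1, 2 and 3. It rose by 0.75 ± 0.14 (adjusted p = 0.00372) in ICH, and EDB against Sham gave 0.48 ± 0.14 (adjusted p = 0.0597) with all EDB libraries above all Sham libraries. That value passed the threshold without Sham 2 (adjusted p = 0.0474) and by DESeq2 (adjusted p = 0.0266), but not by limma-voom.

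Of 14 standard proteasome subunits, which every cell uses, 1 was called higher in ICH with a median of 0.23 over the list. It was Psma1, which rose by 0.43 ± 0.11 (adjusted p = 0.0235). Psma6, the next by p, gave 0.31 ± 0.10 (adjusted p = 0.0603). The count of 1 was 0 without Sham 1, ICH 1 or ICH 2 and 2 without Sham 2, and Psma1 itself was no longer called when any 1 ICH library, Sham 1 or Sham 2 was left out, with adjusted p between 0.05002 and 0.0805, or when ICH 1 and EDB 3 were left out together (0.121). Scaling by library size alone called 5 of the 14 higher and DESeq2 3. No standard subunit was called in EDB against Sham by edgeR (4 at an unadjusted p under 0.05, median 0.25), where DESeq2 called 1, or in EDB against ICH (0 at an unadjusted p under 0.05). Of all 14274 tested genes, 3266 had such a p in EDB against Sham and 2318 in EDB against ICH. Both subunits of the PA28 activator, a cap that opens the proteasome and is known to be induced by interferon gamma, rose in ICH. Psme1 rose by 1.25 ± 0.13 (adjusted p = 8.23e-05) and Psme2 by 0.95 ± 0.12 (adjusted p = 0.000355), and in EDB against Sham by 0.90 ± 0.13 (adjusted p = 0.00194) and 0.73 ± 0.12 (adjusted p = 0.00513). They belong to 12 tested genes of class I loading and chaperoning outside the 42, of which 5 rose in ICH (3 without Sham 1, without ICH 1 or without ICH 1 and EDB 3 together, median 0.45) and 3 in EDB against Sham.

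The class I heavy chain genes in the files are nonclassical or of the RT1-CE block. RT1-A, the classical class Ia gene of the rat, was not analysed here. There were 19 class I genes with an RT1 name, of which 12 were tested. Of these, 6 rose in ICH and 2 in EDB against Sham. RT1 class I genes are close copies of each other, so how the reads were divided between them is uncertain, and their sum is given first. It was 149, 163 and 133 CPM in Sham, 307, 366 and 279.6 in ICH and 237, 275 and 243 in EDB, or 148 ± 15.1, 318 ± 44.3 and 252 ± 20.7 (SD, n = 3). The 3 groups did not overlap, and the means stood 2.14-fold (ICH) and 1.70-fold (EDB) above Sham.

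RT1-S3, a nonclassical class I gene, stood at 54.8, 52.6 and 39.6 CPM in Sham 1, 2 and 3, 109, 151 and 119.9 in ICH 1, 2 and 3 and 105, 110.1 and 86.1 in EDB 1, 2 and 3. All ICH and all EDB libraries exceeded all Sham libraries, and ICH 1 lay below EDB 2. RT1-S3 rose by 1.37 ± 0.17 (adjusted p = 0.000292) in ICH and by 1.04 ± 0.17 (adjusted p = 0.00436) in EDB against Sham, and EDB against ICH gave -0.33 ± 0.17 (adjusted p = 0.358). RT1-T24-1 was at 20.7, 17.9 and 17.1 CPM in Sham 1, 2 and 3, 32.5, 42.3 and 40.7 in ICH 1, 2 and 3 and 23.1, 25.7 and 19.0 in EDB 1, 2 and 3. All EDB libraries lay below all ICH libraries, and EDB overlapped Sham. RT1-T24-1 rose by 1.05 ± 0.16 (adjusted p = 0.00128) in ICH, and it came closest of the 30 to a call in EDB against ICH, at -0.77 ± 0.16 (adjusted p = 0.0621). DESeq2 (adjusted p = 0.00255) and limma-voom (adjusted p = 0.0470) called that fall. RT1-N3 was at 14.5, 15.7 and 15.9 CPM in Sham 1, 2 and 3, 25.6, 25.5 and 22.2 in ICH 1, 2 and 3 and 18.3, 19.2 and 15.8 in EDB 1, 2 and 3. It showed the same arrangement of libraries and rose by 0.67 ± 0.14 (adjusted p = 0.00781) in ICH, with -0.46 ± 0.14 (adjusted p = 0.153) in EDB against ICH. The other tested genes of these name groups were not called. RT1-T24-4, at 20.5 to 23.0 CPM in Sham, 23.8 to 30.4 in ICH and 19.5 to 26.4 in EDB, gave 0.33 ± 0.16 (adjusted p = 0.188) in ICH. RT1-N2 gave 0.31 ± 0.24 (adjusted p = 0.438), with its highest level in EDB 1 (25.5 CPM, against 10.7 to 18.8 in the other 8 libraries). RT1-M3-1, whose mouse counterpart presents formylated peptides, gave 0.52 ± 0.21 (adjusted p = 0.121).

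The 6 RT1-CE genes summed to 12.4, 34.0 and 14.7 CPM in Sham 1, 2 and 3, 89.5, 86.6 and 35.5 in ICH and 24.4, 67.0 and 74.0 in EDB. Libraries of the same group lay far apart. RT1-CE16 was at 0.625, 17.0 and 0.850 CPM in Sham 1, 2 and 3, 41.6, 35.3 and 1.46 in ICH 1, 2 and 3 and 1.30, 31.0 and 40.1 in EDB 1, 2 and 3. It was high in Sham 2, ICH 1, ICH 2, EDB 2 and EDB 3 and low in Sham 1, Sham 3, ICH 3 and EDB 1, so that each group held both kinds of library and the groups overlapped. Its share of all class I counts was at least 9.64% (95% exact binomial interval 8.89 to 10.4, in ICH 2) in the 5 high libraries and at most 0.640% (0.331 to 1.12, in Sham 3) in the 4 low ones, where the intervals cover counting error only. RT1-CE16 was not called in any comparison, with 2.08 ± 1.60 (adjusted p = 0.437) in ICH. RT1-CE14 and RT1-CE15 were likewise not called, at 0.77 ± 0.54 (adjusted p = 0.375) and 0.99 ± 1.09 (adjusted p = 0.597) in ICH, and RT1-CE15 had 0 counts in EDB 1 and 1 count in ICH 3.

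RT1-CE11, which shares the NF-kB palindrome and the 26-base run with RT1-CE16, was at 8.19, 12.1 and 8.42 CPM in Sham 1, 2 and 3, 36.8, 38.9 and 14.4 in ICH 1, 2 and 3 and 14.8, 28.5 and 25.9 in EDB 1, 2 and 3. It was lower in ICH 3 and EDB 1 than in the other libraries of their groups, but every ICH library exceeded every Sham library. RT1-CE11 rose by 1.65 ± 0.37 (adjusted p = 0.0101) in ICH, and EDB against Sham gave 1.27 ± 0.37 (adjusted p = 0.0602), called without ICH 3 (adjusted p = 0.0171). DESeq2 (adjusted p = 0.00777) and the edgeR fit of only the 6 libraries compared (0.0363) also called RT1-CE11 in EDB against Sham, and limma-voom did not. RT1-CE2 was at 1.9997, 1.30 and 3.75 CPM in Sham 1, 2 and 3, 4.14, 6.29 and 17.0 in ICH 1, 2 and 3 and 5.94, 3.18 and 2.69 in EDB 1, 2 and 3. Its highest library by far was ICH 3, which was low in RT1-CE16. Its call in ICH, 1.96 ± 0.57 (adjusted p = 0.0345), rested on that library, with 1.15 (adjusted p = 0.162) without ICH 3, and was also lost without Sham 1 (0.107) or Sham 2 (0.103). RT1-CE1, at 0.354 to 0.562 CPM in Sham, 1.73 to 2.45 in ICH and 1.11 to 1.75 in EDB, rose by 2.14 ± 0.42 (adjusted p = 0.00519) in ICH and by 1.65 ± 0.43 (adjusted p = 0.0399) in EDB against Sham, a call that was lost when any 1 of the 9 libraries was left out (adjusted p from 0.0536 to 0.138) and when ICH 1 and EDB 3 were left out together (0.147).

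As a description chosen after these values were seen, the genes whose log2(CPM + 0.5) over the 9 libraries ran most closely with RT1-CE16 were RT1-CE14 (Pearson r = 0.985), Apex2 (0.933), RT1-Ba (0.913), Ube2f (0.908) and RT1-Bb (0.904). With RT1-Ba as the reference they were Samd13 (0.971), Dusp10 (0.957), RT1-Bb (0.956) and RT1-CE14 (0.941). These libraries share their group structure and depth, and the values carry no test. What sets the split was not tested.

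**Figure D4:**
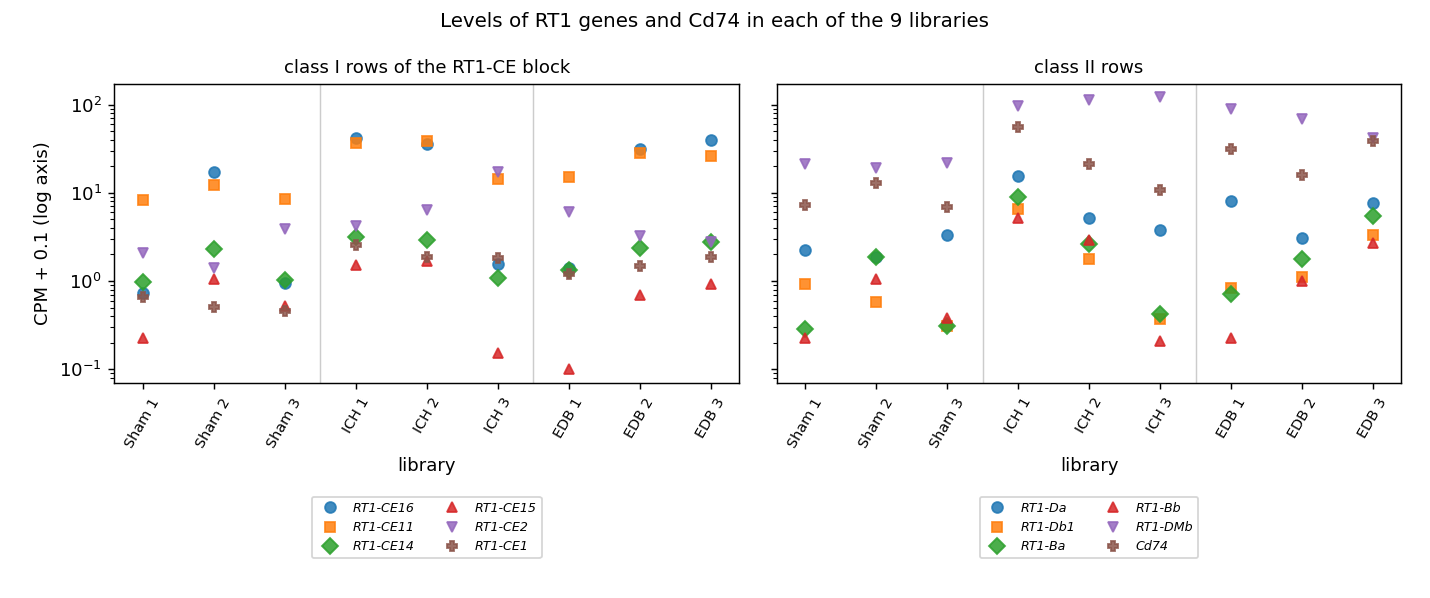
CPM + 0.1 on a log axis of the 6 RT1-CE genes (left) and of 4 class II chain genes with RT1-DMb and Cd74 (right) in each of the 9 libraries. RT1-CE16, RT1-CE14, RT1-Ba and RT1-Bb are low in Sham 1, Sham 3, ICH 3 and EDB 1, RT1-CE2 peaks in ICH 3, and RT1-DMb follows the groups instead.

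None of the class II chain genes was called on its own. With their counts summed into a single row, as an alternative, that row was called higher in ICH against Sham. The summed row was not refitted with libraries left out. RT1-Da and RT1-Db1 encode the alpha and beta chains of the rat counterpart of human HLA-DR, and RT1-Ba and RT1-Bb those of the counterpart of HLA-DQ. The sum over the 5 chain genes was 3.44, 5.06 and 4.81 CPM in Sham, 36.1, 12.6 and 4.81 in ICH and 9.96, 6.89 and 18.9 in EDB. ICH 3 stood at the level of Sham, and the highest libraries were ICH 1, which held no Y-linked counts, and EDB 3, which carried choroid plexus transcripts. The part of those features in the class II levels was not tested. RT1-Da was at 2.12, 1.78 and 3.26 CPM in Sham 1, 2 and 3, 15.3, 5.10 and 3.67 in ICH 1, 2 and 3 and 7.98, 2.94 and 7.50 in EDB 1, 2 and 3. Every ICH library exceeded every Sham library, yet the spread within ICH was wide, and the change was 1.75 ± 0.56 (adjusted p = 0.0518). Leaving out ICH 3 (adjusted p = 0.0274) or EDB 2 (0.0395) brought RT1-Da past the threshold, as did DESeq2 (0.0102). RT1-Db1 gave 2.44 ± 0.99 (adjusted p = 0.117) in ICH, called without ICH 3 (adjusted p = 0.0338) and by DESeq2 (adjusted p = 0.0456). RT1-Ba was at 0.187, 1.78 and 0.212 CPM in Sham 1, 2 and 3, 8.92, 2.52 and 0.324 in ICH 1, 2 and 3 and 0.619, 1.68 and 5.31 in EDB 1, 2 and 3, where ICH 3 lay below Sham 2. It gave 2.43 ± 1.17 (adjusted p = 0.186) in ICH and RT1-Bb 2.54 ± 1.20 (adjusted p = 0.176).

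Cd74, the invariant chain that chaperones class II molecules, was at 7.19, 12.7 and 6.73 CPM in Sham 1, 2 and 3, 56.3, 21.1 and 10.7 in ICH 1, 2 and 3 and 31.1, 15.9 and 38.8 in EDB 1, 2 and 3. ICH 3 lay below Sham 2, and the EDB libraries all lay above Sham. The change was 1.73 ± 0.56 (adjusted p = 0.0564) in ICH and 1.69 ± 0.56 (adjusted p = 0.0986) in EDB against Sham, and EDB against ICH gave -0.04 ± 0.53 (adjusted p = 0.980), with 0.85 without ICH 1 and 0.57 without ICH 1 and EDB 3 together, neither of them called. In ICH the value passed the threshold without ICH 3 (adjusted p = 0.0138), EDB 2 (0.0436) or EDB 3 (0.0497), and in EDB against Sham without ICH 1 (0.0285) or ICH 3 (0.0470).

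Both peptide editors were called, and the difference between their changes and those of the chains was not tested. RT1-DMa and RT1-DMb, which encode the alpha and beta chains of the DM molecule that loads class II molecules with peptide, rose in ICH and in EDB against Sham. RT1-DMa was at 24.3, 20.6 and 25.1 CPM in Sham 1, 2 and 3, 81.9, 93.0 and 104 in ICH 1, 2 and 3 and 70.6, 58.4 and 40.6 in EDB 1, 2 and 3. RT1-DMb was at 21.2, 19.1 and 21.6 CPM in Sham 1, 2 and 3, 96.3, 114 and 121 in ICH 1, 2 and 3 and 89.3, 69.4 and 42.3 in EDB 1, 2 and 3. For both genes the 3 groups did not overlap, ICH 3 was the highest of all libraries and EDB 3 the lowest of its group, which is the reverse of the order of the class II chains in ICH. RT1-DMa rose by 1.99 ± 0.20 (adjusted p = 7.03e-05) in ICH and by 1.28 ± 0.19 (adjusted p = 0.00278) in EDB against Sham, and RT1-DMb by 2.42 ± 0.23 (adjusted p = 6.78e-05) and 1.70 ± 0.23 (adjusted p = 0.00166). EDB against ICH gave -0.71 ± 0.19 (adjusted p = 0.103) for RT1-DMa, which DESeq2 called (adjusted p = 0.0194), and -0.72 ± 0.22 (adjusted p = 0.150) for RT1-DMb. RT1-DOa and RT1-DOb, the chains of the DO molecule that restrains DM and is known mainly from B cells, had 6 and 22 counts over all 9 libraries and were not tested.

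Of the transactivators, Nlrc5 was at 3.87, 5.81 and 5.10 CPM in Sham 1, 2 and 3, 18.5, 14.8 and 14.0 in ICH 1, 2 and 3 and 12.002, 13.2 and 9.38 in EDB 1, 2 and 3. The 3 groups did not overlap. Nlrc5 rose by 1.68 ± 0.23 (adjusted p = 0.000477) in ICH and by 1.23 ± 0.22 (adjusted p = 0.00783) in EDB against Sham, and EDB against ICH gave -0.45 ± 0.22 (adjusted p = 0.333). Ciita, the master switch of class II genes, had 2, 2 and 2 counts in Sham, 12, 5 and 6 in ICH and 5, 4 and 7 in EDB, too few for the filter. Fitted without the filter it gave 1.68 (adjusted p = 0.182) in ICH. The ratio of its summed counts per summed library size in ICH to Sham was 3.33, with a 95% interval of 1.32 to 9.99 that covers counting error only.

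The co-stimulatory genes rose in part. Cd86, which engages CD28 on T cells, was at 1.9997, 2.46 and 2.62 CPM in Sham 1, 2 and 3, 20.1, 9.88 and 12.3 in ICH 1, 2 and 3 and 11.9, 9.05 and 4.25 in EDB 1, 2 and 3. Cd40, the receptor for CD40 ligand on antigen-presenting cells, was at 0.812, 1.30 and 0.708 CPM in Sham 1, 2 and 3, 7.05, 6.92 and 6.16 in ICH 1, 2 and 3 and 3.09, 3.48 and 2.19 in EDB 1, 2 and 3. All ICH and all EDB libraries exceeded all Sham libraries in both genes, and for Cd40 the ICH and EDB libraries did not overlap either. Cd86 rose by 2.58 ± 0.40 (adjusted p = 0.00116) in ICH and by 1.83 ± 0.39 (adjusted p = 0.0178) in EDB against Sham, and Cd40 by 2.83 ± 0.33 (adjusted p = 0.000206) and 1.63 ± 0.33 (adjusted p = 0.0139). Cd40 was the gene with the largest fitted rise of the 30 in ICH against Sham. EDB against ICH gave -1.20 ± 0.30 (adjusted p = 0.0965) for Cd40, which DESeq2 called (adjusted p = 0.0138), and -0.75 ± 0.36 (adjusted p = 0.346) for Cd86. The EDB against Sham calls were lost without Sham 1, Sham 3 or EDB 1, at adjusted p from 0.0584 to 0.0782 for Cd86 and from 0.0515 to 0.0642 for Cd40. Cd80, the other CD28 ligand, had at most 1.89 CPM and gave 1.504 ± 0.80 (adjusted p = 0.233) in ICH.

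The 12 genes that could not be tested had counts at or near the detection limit. Tapbp (tapasin, which bridges TAP and class I molecules), RT1-M10-1 and RT1-M2 were listed at 0 in all 9 libraries. That allows up to 0.212 CPM per library only if reads of these genes could be counted, which was not tested. A listed 0 therefore does not show that a gene is silent in the tissue. Besides Ciita, RT1-DOa and RT1-DOb, RT1-Db2 had 56 counts in all, RT1-M6-2 35, RT1-S2 24, RT1-M1-2 21, RT1-M1-4 12 and RT1-M5 2. RT1-M1-2 and RT1-M1-4 were the only ones of these with more counts in Sham than in the other groups together, at 15 of 21 and 11 of 12, and neither was called when fitted without the filter (adjusted p = 0.544 and 0.102 in ICH against Sham).

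Other genes of the pathway were taken from lists chosen with earlier results known. Ifng itself was listed at 0 in all 9 libraries. Of 16 tested genes of the interferon gamma route and of MHC transcription, 7 rose in ICH (median 0.30) and none fell. The myeloid transcription factors Spi1 and Irf8 rose by 2.55 ± 0.22 (adjusted p = 4.17e-05) and 2.36 ± 0.22 (adjusted p = 6.01e-05), the interferon gamma receptor chain Ifngr1 by 1.46 ± 0.19 (adjusted p = 0.000361) and the interferon-induced factor Irf1 by 1.11 ± 0.16 (adjusted p = 0.000857). Rfx5, a subunit of the complex that binds the X box, stood at 42.7, 39.7 and 41.6 CPM in Sham and 33.7, 38.004 and 40.4 in ICH and was not called (-0.15 ± 0.12, adjusted p = 0.450). In EDB against Sham 5 of the 16 rose, and 3 without Sham 1, Sham 3, EDB 1 or EDB 2. In EDB against ICH edgeR called none of the 16, with 8 at an unadjusted p under 0.05, and DESeq2 called 2 lower. Of all 14274 tested genes, 2318 had such an unadjusted p in that comparison. In EDB against Sham Spi1 rose by 1.73 ± 0.22 (adjusted p = 0.00120) and Irf8 by 1.67 ± 0.22 (adjusted p = 0.00136).

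The class II route in endosomes and lysosomes had the most calls of the 6 pathway lists. Of its 13 tested genes 11 rose in ICH (median 1.46) and 10 in EDB against Sham (median 1.06), and 3 fell in EDB against ICH. The thiol reductase Ifi30, which unfolds antigens for class II loading, was at 9.25, 10.8 and 10.8 CPM in Sham 1, 2 and 3, 116, 97.0 and 99.4 in ICH 1, 2 and 3 and 60.1, 44.0 and 33.1 in EDB 1, 2 and 3. The groups did not overlap. Ifi30 rose by 3.34 ± 0.21 (adjusted p = 1.57e-05) in ICH and fell in EDB against ICH (-1.19 ± 0.19, adjusted p = 0.0356). The endosomal proteases Lgmn and Ctsb rose by 2.29 ± 0.16 (adjusted p = 2.01e-05) and 2.17 ± 0.17 (adjusted p = 2.42e-05) in ICH and fell in EDB against ICH (-0.91 ± 0.15 and -0.93 ± 0.16, adjusted p = 0.0411 for both), Ctsb being named because it was the remaining one of the 3. These 3 calls depended on single libraries. Ifi30 and Ctsb lost theirs when any 1 library other than Sham 2 or EDB 1 was left out (adjusted p from 0.0522 to 0.124), Lgmn when any other than Sham 2 was (0.0594 to 0.124), and the count of 3 fell to 0 when any 1 library other than Sham 2 or EDB 1, or ICH 1 and EDB 3 together, was left out.

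Among co-stimulation and checkpoint genes outside the 42, 7 of 10 tested rose in ICH (median 1.57), 1 fell in EDB against ICH and 5 rose in EDB against Sham. The last count was 0 to 3 without Sham 1, Sham 3, ICH 2, EDB 1 or EDB 2, and 3 without ICH 1 and EDB 3 together. The B7 family member Cd276 rose by 1.36 ± 0.13 (adjusted p = 6.95e-05) and the checkpoint ligand Lgals9 by 0.73 ± 0.12 (adjusted p = 0.00203) in ICH. Cd276 was the gene that fell in EDB against ICH (-0.69 ± 0.13, adjusted p = 0.0454), a call lost when any 1 library other than Sham 2 was left out (adjusted p from 0.0571 to 0.151), and without ICH 1 and EDB 3 together (0.1795). Cd274, which encodes the checkpoint ligand PD-L1, gave 0.85 ± 0.46 (adjusted p = 0.235) in ICH. Its receptor gene Pdcd1 had 0 counts in all 3 Sham libraries and 54, 20 and 13 in ICH 1, 2 and 3, which is at least 8.44-fold higher against a floor of 3 counts per Sham library, and the list median is the same with this bound. Of 6 class I-like genes, 2 rose in ICH (1 without Sham 1 or ICH 3), the lipid-presenting Cd1d1 by 1.62 ± 0.32 (adjusted p = 0.00552) and the antibody receptor chain Fcgrt by 0.62 ± 0.15 (adjusted p = 0.0137). For Fcgrt the adjusted p was 0.0622 when Sham 1 was left out and 0.0557 when ICH 3 was. In EDB against Sham 2 of the 6 rose, and 0 or 1 when any 1 library other than EDB 2 was left out and 0 without ICH 1 and EDB 3 together.

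**Figure D5:**
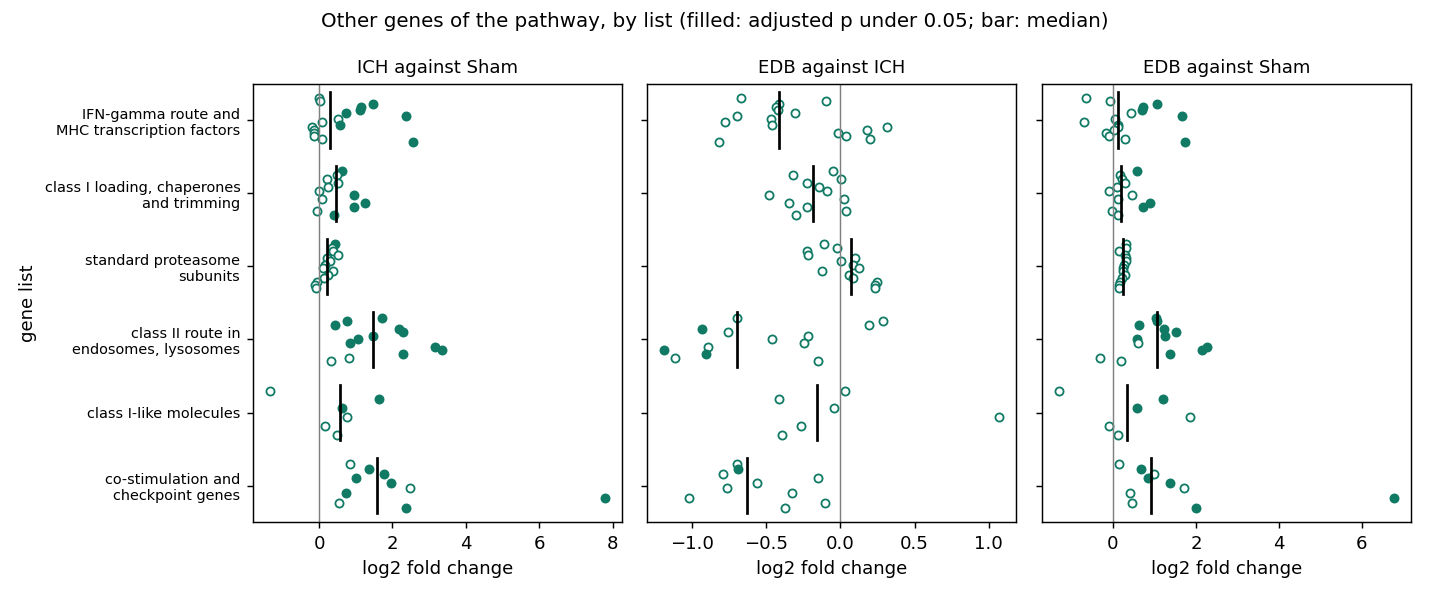
Fitted log2 fold changes of the tested genes in 6 pathway lists (points; filled where called; bar: list median) in the 3 comparisons, with different x scales. The class II route and co-stimulation lists lie furthest right in ICH against Sham, the standard proteasome subunits cluster near 0, and the isolated points beyond 6 are Pdcd1, which had 0 counts in Sham, so that its fitted position depends on the model's prior count.

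Markers of cell types that can carry these genes, and of others in the tissue, are given here, and not all of them moved with the groups. Of 13 microglia and macrophage markers 11 rose in ICH, none was called in EDB against ICH by edgeR (9 at an unadjusted p under 0.05, and 3 lower by DESeq2) and 10 rose in EDB against Sham, and their summed level was 752 to 879 CPM in Sham, 3351 to 3809 in ICH and 1662 to 2900 in EDB. Of all 14274 tested genes, 2318 had an unadjusted p under 0.05 in EDB against ICH. Monocyte and border macrophage markers summed to 52.9 to 83.3 CPM in Sham, 454 to 766 in ICH and 170 to 240 in EDB, with 6 of 8 higher in ICH, 3 higher in EDB against Sham and 1 lower in EDB against ICH. The last was the lysozyme gene Lyz2, which fell by 1.84 on the log2 scale (adjusted p = 0.0244), a call that ended when EDB 2, EDB 3, ICH 1 or ICH 2 was omitted (adjusted p from 0.0557 to 0.0787) and without ICH 1 and EDB 3 together (0.118). Dendritic cell markers summed to 9.85 to 14.02, 14.96 to 23.1 and 12.7 to 15.8 CPM, where 1 of 6 tested (Itgax) rose in ICH, Cd209a was at 0 and Xcr1 and Clec9a had 17 and 21 counts in all. B cell markers summed to 1.75 to 2.55, 5.94 to 15.6 and 3.48 to 15.5 CPM, with Cd79a at 22 and Ms4a1 at 8 counts in all, and 1 of 2 tested (Cd22) rose in ICH, a call lost when any 1 Sham library, ICH 1 or ICH 2 was left out. T cell markers summed to 7.9995 to 12.1, 26.9 to 59.4 and 12.4 to 17.4 CPM. In ICH 5 of the 9 tested were fitted above 0 and 4 below 0, with a median of 0.57. Of the 9, 3 rose in ICH (Cd8a, Cd8b and Cd6), 3 rose in EDB against Sham (0 or 1 without Sham 1, Sham 3, ICH 2 or EDB 1) and 1 fell in EDB against ICH, while Cd3d and Cd3g had 6 and 9 counts in all. The gene that fell was Cd8a, which encodes the CD8 alpha chain, by 3.26 on the log2 scale (adjusted p = 0.0418), and its call was lost when any 1 library other than Sham 2 or ICH 3 was left out (adjusted p from 0.0571 to 0.107), without ICH 1 and EDB 3 together (0.161) and by limma-voom (0.0758). The 5 NK cell markers in the files were all below the filter, with a summed 0.240 to 1.06 CPM per library. No endothelial marker was called higher. Those markers summed to 317 to 522 CPM in Sham, 262 to 336 in ICH and 269.95 to 284 in EDB, where of 7 tested 1 (Flt1) was lower in ICH (2 without Sham 2) and none was called in EDB against ICH (1 at an unadjusted p under 0.05). Flt1 was also lower in EDB against Sham, a count of 1 that was 0 without Sham 3 or any 1 of ICH 2, ICH 3, EDB 1, EDB 2 and EDB 3, and without ICH 1 and EDB 3 together. Astrocyte markers summed to 2081 to 2751 CPM in Sham, 7349 to 7633 in ICH and 4754 to 5504 in EDB, and 2 of 7 (Gfap and Gja1) rose in ICH while 5 were not called. Gfap alone made 403 to 544 CPM of these sums in Sham, 4544 to 5165 in ICH and 2804 to 3770 in EDB. The fitted changes of the 7 markers had a median of 0.53 in ICH and -0.11 in EDB against Sham, where 4 of the 7 lay below 0. In EDB against Sham 1 of them rose (Gfap) and 1 fell (Slc1a2), the fall being lost without any 1 library other than Sham 2 or EDB 2 and without ICH 1 and EDB 3 together. In EDB against ICH edgeR called none (5 at an unadjusted p under 0.05) and DESeq2 2 lower. Of 9 striatal neuron markers 5 were called lower in ICH, 2 to 3 without ICH 1, ICH 2 or ICH 3, and 0 without ICH 1 and EDB 3 together. The part of these cell types in the changes of the 42 genes was not tested.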

How the data were processed

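RNA of rat striatal tissue was measured in 9 libraries, 3 each of Sham, ICH and EDB, grouped by sample title. The authors deposited whole-number read counts per gene, 1 library a file. Cutadapt, HISAT2, HTSeq and limma are named, with build Rnor_6.0, per the submitters' processing notes. Versions, annotation, strand and multi-mapping settings were not given in the sources used here, so reads of near-identical RT1 genes or of overlapping genes may be shared or dropped. Totals ran from 14658110 to 17659936 counts.

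Tests were run with edgeR 4.0.16 under R 4.3.3. Genes were filtered by filterByExpr by group at its minimum count of 10, which left 14274 of 22890, scaled by TMM and fitted in 1 model with a mean per group over all 9 libraries by glmQLFit with robust dispersions. Pairs of groups were compared by glmQLFTest, two-sided, with Benjamini-Hochberg adjustment over all genes tested. The SE of a log2 fold change is its absolute value over the square root of F. The steps were tested on simulated data. Every tested gene of the 42 is named, members called with a mean of at least 5 CPM in a group are given in every library, and from each pathway list the 2 genes with the smallest p in ICH against Sham and a few set genes are named. Ctsb, RT1-CE16 and its most alike genes were added after their values were seen. The members and lists were chosen with earlier results of these data known. Alternatives were RLE and library-size scaling, no filter or 1 CPM in 3 libraries, DESeq2 1.42.0, limma-voom (limma 3.58.1), only the 6 libraries compared, a replicate block, an absolute log2 fold change above 1, summed RT1 counts and each library left out. ICH 1 and EDB 3 were left out together and the alternatives were applied to pathway lists as additions made after the data were seen. Promoters are the windows of the RefSeq table for GRCr8, searched on both strands for motifs chosen with the data known (longer forms of the X box, interferon and NF-kB patterns were searched first and matched the same genes of the 42), matched by symbol, and no coordinates of the 2 builds were mixed.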

Additional observations from a re-analysis of the deposited data

How the results depend on the processing

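In ICH against Sham no fitted change of the 30 genes turned its sign under any alternative, and 16 to 20 were called with any 1 library left out, 15 with an absolute change above 1 and 14 of 16 with the RT1 class I and class II chain counts summed. Both sums were among those 14, while Cd74 and Cd80 were not called. In EDB against ICH 0 to 2 were called with 1 library left out, 3 by DESeq2 and 1 by limma-voom, and in EDB against Sham 7 to 13. Without ICH 1 and EDB 3 together 16, 0 and 10 were called. Over all genes, ICH against Sham gave 1769 to 2624 calls with 1 library left out, 1189 with an absolute change above 1 and 1700 without ICH 1 and EDB 3. EDB against ICH gave 8 to 321, 702 by DESeq2, 187 by limma-voom and 16 without ICH 1 and EDB 3, and EDB against Sham 508 to 1661, 1797 by DESeq2 and 528 with an absolute change above 1. Scaling by library size alone gave 2008 genes higher and 691 lower in ICH against Sham, or 74.4% higher, where TMM gave 1628 and 1042, or 61.0%.

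None of the changes that turned their sign was called. With 1 library left out, the EDB against ICH change ran from -0.44 to 0.85 for Cd74 (-0.04 with all), from -1.76 to 0.85 for RT1-Ba (-0.63), from -0.74 to 0.49 for RT1-Da (-0.39), from -1.65 to 0.77 for RT1-Db1 (-0.74), from -0.502 to 0.13 for RT1-CE14 (-0.14), from -0.69 to 0.45 for RT1-CE16 (-0.11), from -0.17 to 0.10 for RT1-M3-1 (-0.06) and from -0.11 to 0.36 for RT1-N2 (0.20). Without ICH 1 alone it turned to above 0 for Cd74, RT1-Ba, RT1-Da, RT1-Db1, RT1-CE14 and RT1-CE16, and for RT1-N2 it stayed above 0. Cd74 was also at 0.21 by limma-voom and at 0.57 without ICH 1 and EDB 3, and RT1-Da at 0.32 without both. The EDB against Sham change ran from -0.32 to 1.44 for Cd80 (0.60) and from -0.71 to 0.79 for RT1-CE15 (-0.08). The cause was not tested.

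The replicate numbers did not pair the libraries: deviations of same-numbered libraries correlated between -0.33 and 0.33 over 9 pairs, and 2 of 9 libraries correlated best with their own number. With the replicate number as a block, 17, 0 and 10 of the 30 genes were called, against 18, 0 and 11, and 58 of all genes in EDB against ICH, against 98. Erap1 in ICH (adjusted p = 0.0621) and RT1-CE1 in EDB against Sham (0.0854) lost their calls, and Cd74 in EDB against ICH (0.16) and RT1-CE15 in EDB against Sham (0.022) turned their sign. Groups of 3 and genes of a few counts, such as Ciita and RT1-CE15, limit what these libraries can show.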
